A study of Mus musculus with 12 samples.

Results

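The genes described here are 42 enzymes of glycolysis, of pyruvate handling and of the tricarboxylic acid (TCA) cycle, and what was measured at them is binding of ESRRB, a nuclear receptor of the network that keeps cells pluripotent, in mouse embryonic stem cells. The regions counted as theirs were those whose nearest RefSeq protein-coding gene was a member and whose centre lay inside that gene or within 50 kb of it. The rule found 235 of the 86201 regions of the deposited count table, with at least 1 region at each of the 42 genes. ESRRB chromatin immunoprecipitation followed by sequencing (ChIP-seq) had been made in a line labelled NanogKO:Esrrb:Nanog, called "with Nanog" here, and in a line labelled NanogKO:Esrrb, called "without Nanog" here, with 3 libraries of each. Both lines are Nanog-null in origin and both carry Esrrb in their names, and the names differ by the added Nanog, a homeodomain factor of the same network. The cell line field of the labels reads the same, N{delta}:cE:iN, for both, so the titles alone separate them, and how Nanog was added back, from which promoter, and whether a line is a single clone are not stated in the labels. Cells grew untreated in medium with serum and leukaemia inhibitory factor, and fixation was single or double, with no record of which library had which. Nothing in the labels says that replicates were cultured separately, so a p-value reflects the spread between these libraries alone, and that spread may be technical.

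Glycolysis splits glucose into pyruvate in the cytosol, from the hexokinases that trap glucose to pyruvate kinase. Pyruvate is then either reduced to lactate by lactate dehydrogenase or carried into the mitochondrion, where the pyruvate dehydrogenase complex turns it into acetyl-CoA for the TCA cycle, and the pyruvate dehydrogenase kinases switch that complex off. Mouse embryonic stem cells are known for using both glycolysis and mitochondrial respiration, and oestrogen-related receptors, the family of ESRRB, are known in other tissues as regulators of genes of energy metabolism, which they bind through an extended AGGTCA core.

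Counts in regions summed to between 6689166 and 8382646 per library with Nanog and to between 2734338 and 5193707 without Nanog. Enzyme regions held between 0.441% and 0.480% of these counts with Nanog and between 0.473% and 0.516% without. The median enzyme region had 55, 75 and 69 reads in the libraries with Nanog and 23, 33 and 43 in those without, so counting error was larger without Nanog. Signal below is in CPM, counts relative to library size, scaled by the trimmed mean of M-values (TMM), and levels of different regions are compared per kb of region, since a wide region collects more reads. A log2 fold change is with over without Nanog, and a region is called higher or lower with Nanog where the adjusted p of edgeR's quasi-likelihood test, by Benjamini-Hochberg over all regions tested, was under 0.05. Because of the scaling, higher and lower are relative to the other regions. Of the 235 regions, 233 passed the filter on low counts, and the 2 that did not are narrow regions at Eno1 and Eno3.

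ESRRB signal was found at every enzyme gene, and at most of them the strongest region lay at the gene's start. Over all protein-coding genes, 16015 of 21900 (73.1%) had a region by the same rule. Hk2, which encodes the inducible hexokinase, had 31 regions, more than any other member and at the 99.6 percentile of all genes with a region. Eno1 and Idh2 had 15 each, Hk1 and Pfkp 12 each, and Aldoc, Mdh1, Dlat and Pdk3 had 1 each. The median was 4 regions per enzyme gene, against 3 per gene over all genes with a region. Of the 233 enzyme regions at a gene with an annotated start, 20.2% lay within 1 kb of a start of that gene, against 15.0% of 57605 such regions in the whole table. The strongest region of a gene, meaning the one of highest mean log-CPM, lay within 1 kb of its own start at 29 of 41 enzyme genes (70.7%) and at 3282 of 12718 genes in all (25.8%). Enzyme regions at starts had a median of 29.0 CPM per kb, against 18.7 CPM per kb over all regions at starts, while over all positions the medians were 21.3 CPM per kb for enzyme regions and 19.6 CPM per kb for all. The strongest regions of the enzyme genes sat at a median percentile of 95.6 by CPM, against 79.3 for the strongest regions of all genes.

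**Figure D1:**
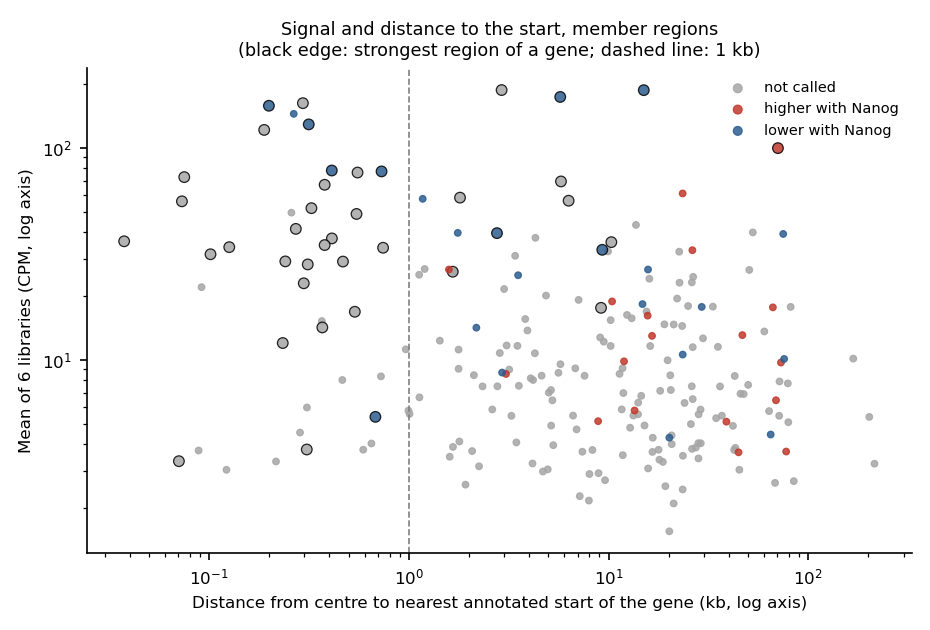
Mean TMM-scaled CPM over the 6 libraries (vertical, log axis) against the distance in kb from a region's centre to the nearest annotated start of its gene (horizontal, log axis), for every tested enzyme region of a gene with a start in the table. Points are regions, coloured by call, and a black edge marks the strongest region of a gene; 29 of 41 such regions lie left of the dashed line at 1 kb, and no region left of it was called higher with Nanog.

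The deposited peak list with Nanog holds all 235 enzyme regions, against 99.2% of all regions. The list without Nanog holds 125 of them (53.2%), against 38.6% of all regions. A region counts as listed from 1 bp of overlap, and each line has a single list, so these shares carry no replicate error. The libraries without Nanog also had fewer counts, and how far this shortened their list was not tested. Of the 108 tested enzyme regions absent from that list, 11 were called higher with Nanog, 1 lower and 96 not called. Over all regions listed only with Nanog, 10.8% were higher and 1.92% lower. The 125 enzyme regions in both lists had a median of 30.3 CPM per kb, against 16.4 CPM per kb for the tested regions absent from the list without Nanog.

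The region table allowed a comparison at base level only at annotated starts, where RefSeq promoter windows of GRCm38.p6, the assembly of mm10, were at hand for 41 of the 42 genes; Idh3a has no window. A window holds 250 bases before a start and 50 after it. A region overlapped a window of 33 of these 41 genes (80.5%), against 30.0% of 17492 genes in all. The windows were searched on both strands for the ERR element TCAAGGTCA, for its shorter form AAGGTCA and for the nuclear receptor core AGGTCA, each of which contains the next. TCAAGGTCA was in no enzyme window and in the windows of 0.377% of all genes. AAGGTCA was in windows of 3 enzyme genes (7.32%) and of 4.73% of all genes. AGGTCA was in windows of 12 enzyme genes (29.3%) and of 16.7% of all genes. These shares, and those of overlap, count a gene if any of its windows qualifies. The enzyme genes had 61 windows for 41 genes and all genes 21263 for 17492, so more windows per gene were searched among the enzymes. The 3 matches to AAGGTCA are shown because each lies under the strongest region of its gene; capitals mark the match, and the 27 bases are written on the strand on which it reads as AAGGTCA.
Eno1, chr4:150236535-150236561, plus strand: tattaagggaAAGGTCActttcccttg
Tpi1, chr6:124814134-124814160, plus strand: caagtctctgAAGGTCAgtacaaacgc
Ogdh, chr11:6292155-6292181, minus strand: cgcaggcaccAAGGTCAgcgccgtgtc
Positions are counted along the gene, with the start as 1 and no position 0. The match at Eno1 spans -163 to -157 of the most upstream of its annotated starts. That at Tpi1 spans 9 to 15, and that at Ogdh spans -5 to 2 of an alternative start. A match is a string of letters and not a mapped site. Of these 3 strongest regions, that of Eno1 was lower with Nanog, and those of Tpi1 and Ogdh were not called.

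Start regions of 4 of the glycolytic and pyruvate genes carried the largest signals that fell with Nanog at a start, and the 250 bases before each start are shown beside that result, 5′ to 3′ on the strand of the gene, with AGGTCA or its reverse complement TGACCT in capitals. Each stretch lies wholly under a region.
Eno1, chr4:150236458-150236707, plus strand: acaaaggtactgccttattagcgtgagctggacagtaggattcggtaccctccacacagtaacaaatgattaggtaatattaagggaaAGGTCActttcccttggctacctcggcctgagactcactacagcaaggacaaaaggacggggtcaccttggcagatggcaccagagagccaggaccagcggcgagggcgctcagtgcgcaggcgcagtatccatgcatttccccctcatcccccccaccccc
Pgk1, chrX:106186850-106187099, plus strand: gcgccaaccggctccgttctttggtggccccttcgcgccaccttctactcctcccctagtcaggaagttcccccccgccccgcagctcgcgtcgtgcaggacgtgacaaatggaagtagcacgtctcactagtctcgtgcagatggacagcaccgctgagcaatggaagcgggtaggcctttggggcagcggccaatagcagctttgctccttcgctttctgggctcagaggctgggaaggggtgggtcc
Ldhb, chr6:142507958-142508207, minus strand: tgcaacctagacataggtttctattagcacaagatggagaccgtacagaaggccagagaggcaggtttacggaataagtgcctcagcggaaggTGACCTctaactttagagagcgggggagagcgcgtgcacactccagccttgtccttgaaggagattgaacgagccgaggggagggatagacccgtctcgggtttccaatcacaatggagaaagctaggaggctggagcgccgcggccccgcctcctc
Pdk4, chr6:5496279-5496528, minus strand: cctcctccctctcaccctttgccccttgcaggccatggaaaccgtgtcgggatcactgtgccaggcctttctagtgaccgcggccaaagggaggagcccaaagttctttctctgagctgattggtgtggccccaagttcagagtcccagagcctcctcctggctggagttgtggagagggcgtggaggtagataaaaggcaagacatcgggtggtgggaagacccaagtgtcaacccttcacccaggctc
The core is present in the stretches of Eno1 and Ldhb and absent in those of Pgk1 and Pdk4. The stretch of Eno1 is that of its most upstream annotated start. Its other windows, chr4:150236947-150237246 and chr4:150236974-150237273, lie under the same region and hold no AGGTCA.

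Against the line without Nanog, 18 enzyme regions were higher with Nanog and 23 were lower, and 192 were not called. Of all 84892 regions tested, 19.2% were called, 9.42% higher and 9.78% lower, and among the enzyme regions the shares were 7.73% and 9.87%, which is near that background. The median log2 fold change was -0.04 over enzyme regions and -0.01 over all. The 3 libraries of each line did not overlap at 36 enzyme regions higher with Nanog and at 44 lower, where all regions had 17.0% and 16.8%. Of the 41 called regions, 36 had no overlap and 5 had some. The split of calls turned with the scaling: it was 23 higher and 19 lower with column totals alone, and 21 higher and 17 lower with an offset fitted by loess on mean signal. With DESeq2 it was 14 and 14.

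The calls differed by position and role in the following counts. At starts, 6 of 46 enzyme regions were lower with Nanog and 0 were higher, where all regions at starts had 4.01% lower and 2.79% higher. The 6 were at Aldoa, Pgk1, Eno1, Ldhb, Pdk3 and Pdk4. Start regions of enzyme genes were stronger than others, so the same count was taken among start regions in the 10% with the most signal: 5 of 25 were lower and 0 higher, against 16.4% lower and 3.35% higher over all such regions. Inside genes and over 1 kb from a start, 10 of 101 enzyme regions were higher and 4 lower, against 10.9% and 9.01%. Outside genes and over 1 kb from a start, 8 of 84 were higher and 13 lower, against 8.45% and 12.6%. A split of outside regions by side kept those within 1 kb of a start, which are thus counted again. Before the start, 1 of 57 was higher and 10 were lower, against 7.36% and 11.0%. Beyond the gene end, 7 of 36 were higher, 5 of them at Hk2, and 6 were lower, against 8.46% and 12.4%. By role, the hexokinases and the other upper glycolytic enzymes had 11 higher and 7 lower regions of 74, the lower glycolytic enzymes 1 and 5 of 42, the lactate dehydrogenases 0 and 1 of 12, the pyruvate dehydrogenase complex 1 and 0 of 10, its kinases 1 and 5 of 20, pyruvate carboxylase 0 and 0 of 7, and the TCA and isocitrate enzymes 4 and 5 of 68. No difference between roles or positions was tested.

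**Figure D2:**
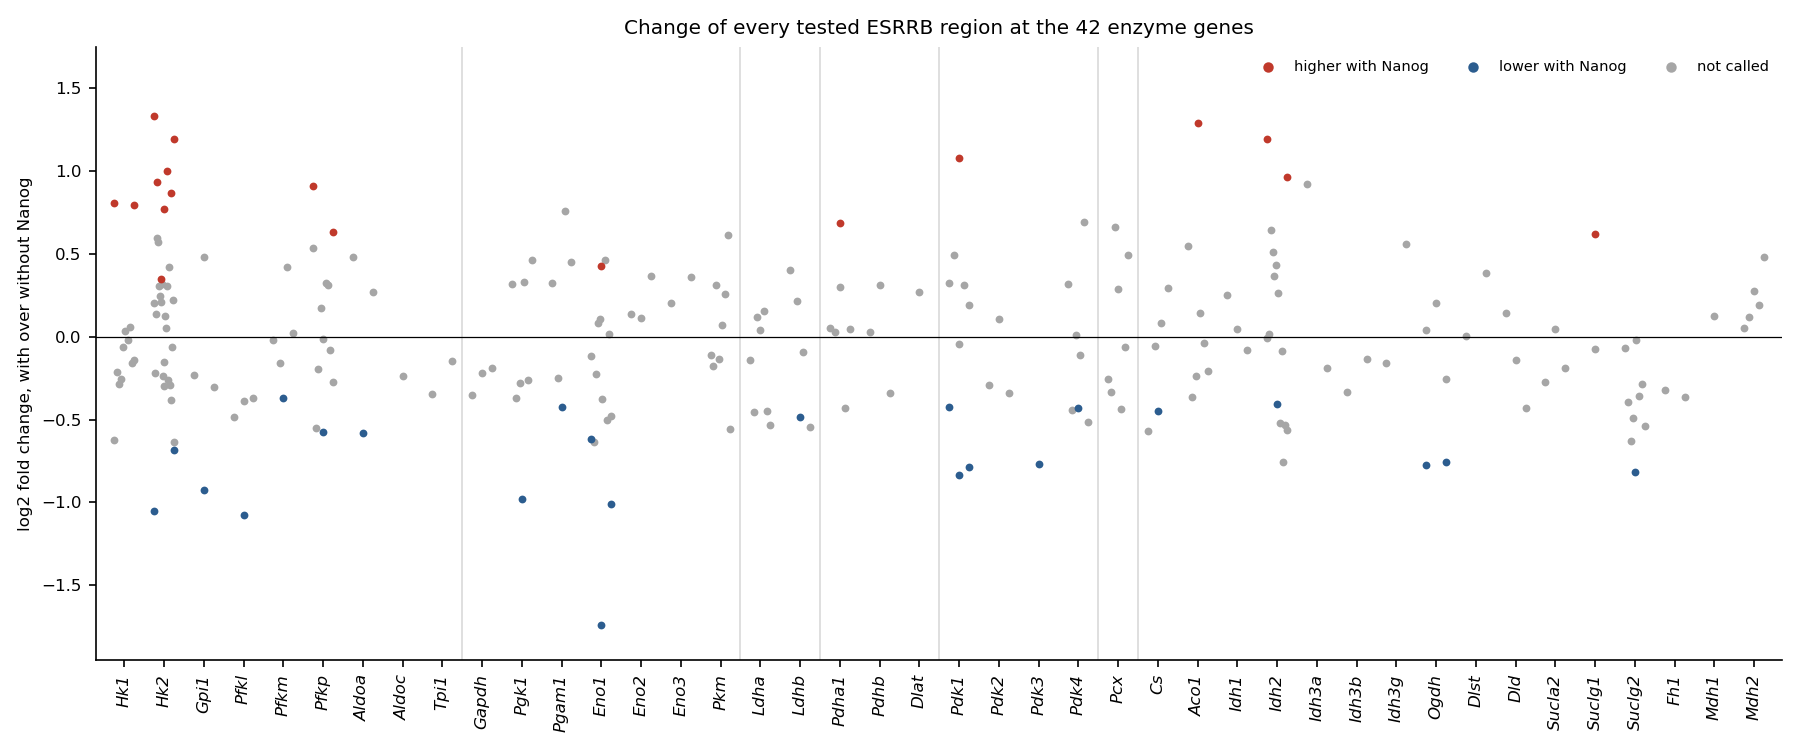
log2 fold change with over without Nanog (vertical) of each of the 233 tested enzyme regions, by gene in pathway order (horizontal), with grey lines between roles. Each point is a region, placed in genome order within its gene and call; 18 are called higher, 23 lower and 192 not called, and 7 of the 18 higher ones are at Hk2.

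Among the hexokinases, Hk2 was the enzyme gene with the most calls and also the one with the most regions. The calls differed between the sides of the gene. Beyond its end, 5 of 12 regions were higher with Nanog and 0 lower, inside it 2 of 12 were higher, and before its start 0 of 7 were higher and 2 were lower. Over all regions beyond a gene's end, 8.46% were higher and 12.4% lower, and before a start 7.36% were higher and 11.0% lower. Inside genes and over 1 kb from a start, 10.9% were higher and 9.01% lower. The strongest Hk2 region, chr6:82703414-82704580, lies 21.0 kb beyond the end of the gene. It had 119, 101 and 114 CPM in libraries A, B and C with Nanog and 99.5, 76.6 and 86.9 CPM in those without. The libraries with Nanog were all above those without, by a narrow margin. The log2 fold change was 0.35 ± 0.11 (SE; edgeR adjusted p = 0.0220), and the call was lost with DESeq2 and without library A with Nanog, library C with Nanog or library C without Nanog. Thinning all libraries to the smallest total ended this call as well. The region 17.0 kb beyond the end, chr6:82707750-82708221, changed more. It had 23.2, 21.5 and 26.8 CPM with Nanog and 8.58, 12.1 and 13.9 CPM without. The lowest library with Nanog was above the highest without, and the log2 fold change was 1.00 ± 0.19 (edgeR adjusted p = 0.000317). Of the Hk2 calls, it was the only one kept in every alternative. Inside Hk2, chr6:82727325-82728098 had 18.2, 15.1 and 17.5 CPM with Nanog and 9.32, 8.69 and 9.61 CPM without. Both groups were tight and apart, with a log2 fold change of 0.87 ± 0.20 (edgeR adjusted p = 0.00232), and thinning ended the call. A weaker region inside it, chr6:82760809-82761123, had 6.56, 11.4 and 6.37 CPM with Nanog and 2.61, 3.09 and 4.51 CPM without, and a log2 fold change of 1.19 ± 0.30 (edgeR adjusted p = 0.00563), a call lost without library B with Nanog. Thinning ended that call too. The other 3 higher regions, 19.5 to 28.0 kb beyond the end, were weak, with means between 5.15 and 12.6 CPM with Nanog and between 2.23 and 6.75 CPM without. On the other side, 2.93 kb before the start, chr6:82777221-82777544 had 5.98, 4.60 and 6.50 CPM with Nanog and 8.20, 17.1 and 9.81 CPM without. Library B without Nanog was the highest there, and without it or after thinning the call was lost. The log2 fold change was -1.05 ± 0.26 over all libraries (edgeR adjusted p = 0.00388). Summed over its 31 regions, Hk2 had 560.1, 532.9 and 562.1 CPM with Nanog and 464.2, 488.1 and 450.3 CPM without, with a log2 fold change of 0.24 ± 0.06 (edgeR adjusted p = 0.00390 over 15979 genes). With regions within 10 kb alone the sum was not called (adjusted p = 0.157).

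Hk1 encodes the constitutive hexokinase. Its strongest region, 1.80 kb from a start, was not called (log2 fold change -0.16 ± 0.12, edgeR adjusted p = 0.379). A pair of regions inside the gene were higher with Nanog. The first, chr10:62313704-62314587, had 41.1, 47.6 and 36.4 CPM with Nanog and 22.4, 29.2 and 20.4 CPM without. Its groups were well apart, with a log2 fold change of 0.81 ± 0.15 (edgeR adjusted p = 0.000384). The other, chr10:62329769-62330255, had 17.2, 30.2 and 24.7 CPM with Nanog and 11.9, 12.9 and 16.1 CPM without, and a log2 fold change of 0.80 ± 0.20 (edgeR adjusted p = 0.00463). Its groups were close, since library A with Nanog was just above library C without, and its call was lost without library B with Nanog.

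**Figure D3:**
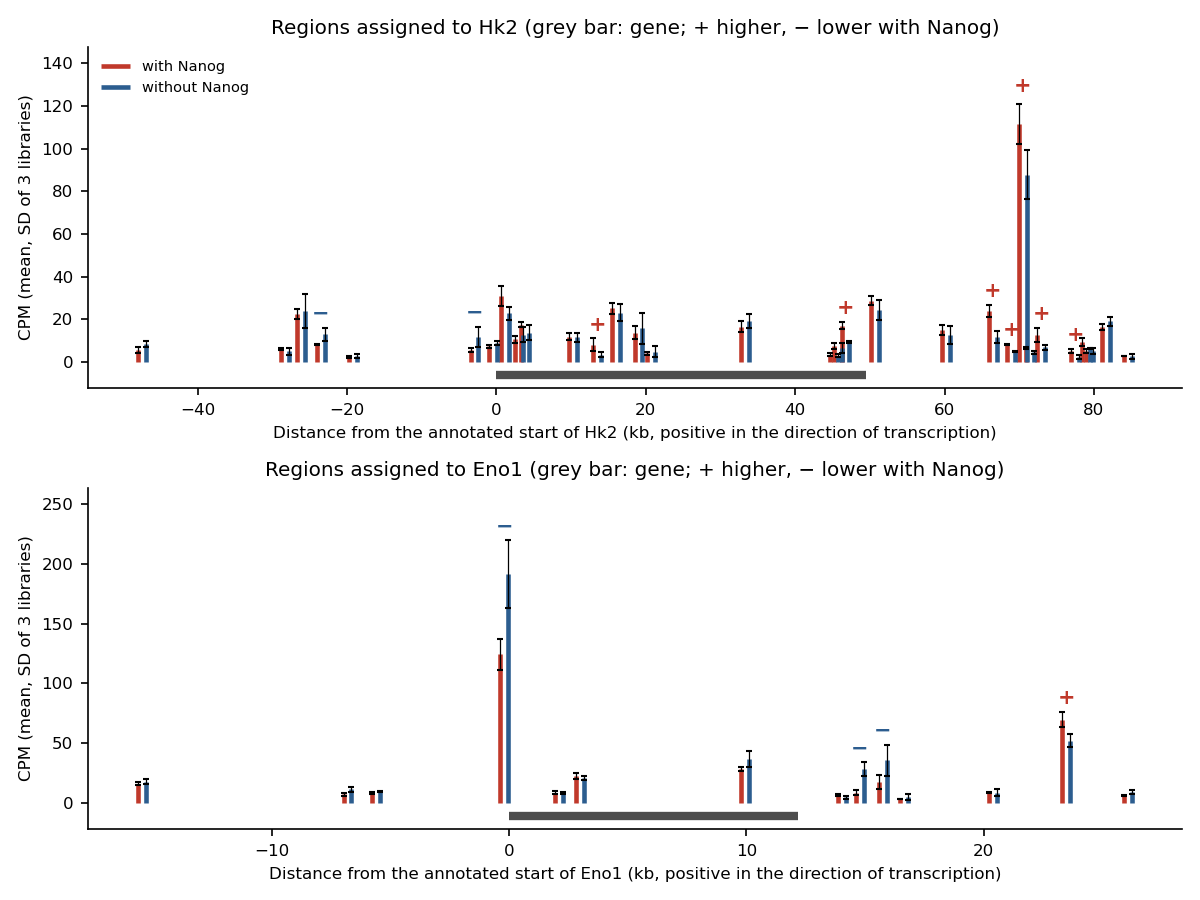
Signal in CPM (vertical; bars are the mean and whiskers the SD of 3 libraries) of every tested region assigned to Hk2 (top) and Eno1 (bottom), against the distance in kb from the annotated start (horizontal), with bars with Nanog drawn just left of those without at the same region. Plus and minus signs mark calls; at Hk2 the 7 calls higher with Nanog lie inside the gene or beyond its end and the 2 lower calls before its start, and at Eno1 the start region and a pair beyond the end are lower.

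In the rest of upper glycolysis, the phosphofructokinase genes Pfkl, Pfkm and Pfkp encode the subunits of the enzyme that commits sugar to glycolysis, and their regions went different ways. The strongest Pfkl region, chr10:78018766-78019439, lies 9.30 kb before the start. It had 21.3, 18.4 and 23.7 CPM with Nanog and 51.5, 40.4 and 42.8 CPM without. The line without Nanog was well above the other in all libraries, with a log2 fold change of -1.08 ± 0.15 (edgeR adjusted p = 5.03e-06). Summed over its 4 regions, Pfkl was at 70.0 ± 1.6 CPM with Nanog and 110 ± 12 CPM without (SD, n = 3 libraries each), a log2 fold change of -0.64. At Pfkp, the strongest region, inside the gene and 5.77 kb from a start, was not called (log2 fold change 0.33 ± 0.12, edgeR adjusted p = 0.0555), and 7 of 15 alternatives called it higher. The next region towards the start, chr13:6647013-6648184, had 50.7, 41.4 and 46.4 CPM with Nanog and 71.2, 60.0 and 74.7 CPM without. All libraries with Nanog were lower, with a log2 fold change of -0.58 ± 0.12 (edgeR adjusted p = 0.00118). A pair of weaker Pfkp regions were called higher, with log2 fold changes of 0.91 and 0.63, and both calls were lost without library C with Nanog. Thinning to the smallest library total ended the call at 0.91 as well. The sum over the 12 Pfkp regions was 261 ± 10 CPM with Nanog and 253 ± 6.6 CPM without, and it was not called. At Pfkm the strongest region was called lower by a narrow margin (log2 fold change -0.37 ± 0.13, edgeR adjusted p = 0.0459), and 10 of 15 alternatives ended that call.

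Aldolase splits the phosphorylated sugar, and Aldoa is its widely expressed gene. The Aldoa start region, chr7:126797542-126799355, had 59.2, 60.4 and 66.8 CPM with Nanog and 88.4, 82.5 and 107 CPM without. The groups were apart, and the log2 fold change was -0.58 ± 0.11 (edgeR adjusted p = 0.000511). The Aldoa sum fell too, with a log2 fold change of -0.45 (edgeR adjusted p = 0.00137). Aldoc, the brain aldolase, had only a weak region of 2.96 ± 0.94 CPM with Nanog and 3.69 ± 0.77 CPM without. The start regions of Gpi1, which isomerises glucose-6-phosphate, and of Tpi1, the triose-phosphate isomerase, showed no call at log2 fold changes of -0.30 and -0.15. A weak region inside Gpi1 was called lower, at 2.97 ± 0.53 CPM with Nanog and 5.61 ± 2.2 CPM without, with overlapping libraries, and 8 of 14 alternatives ended that call.

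In lower glycolysis the regions with the most reads were at the starts of Gapdh, Pgk1 and Eno1; per kb of region, Gapdh, whose region is 3304 bases wide, had 49.1 CPM, Pgk1 79.0 CPM and Eno1 92.4 CPM, and the strongest Eno2 region, beyond the gene's end, had 51.5 CPM. Gapdh encodes glyceraldehyde-3-phosphate dehydrogenase, and its region, chr6:125163827-125167130, had 166, 138 and 151 CPM with Nanog and 184, 154 and 180 CPM without. The libraries overlapped and the region was not called (log2 fold change -0.19 ± 0.10, edgeR adjusted p = 0.178). Of 15 alternatives, 2 called it lower, 1 of them the fit without library B without Nanog, and its sign turned with the loess offset, to 0.03. Processed pseudogenes of Gapdh and of other glycolytic genes are known in the mouse, and how reads with several matches were treated is not stated in the labels. Pgk1 encodes phosphoglycerate kinase, which makes the first ATP of the pathway. Its start region, chrX:106186600-106188230, had 132, 63.0 and 64.9 CPM with Nanog and 241, 147 and 126 CPM without. Library A was the highest of both lines, by a wide margin, and library A with Nanog was above library C without. The log2 fold change was -0.98 ± 0.19 (edgeR adjusted p = 0.000517), and DESeq2 did not call it (adjusted p = 0.136). Its 250 bases before the start, shown above, hold no AGGTCA.

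Eno1, the widely expressed enolase, had 4 called regions. The start region, chr4:150235656-150237362, holds the AAGGTCA shown above. It had 134, 110 and 129 CPM with Nanog and 223, 170 and 180 CPM without. Every library with Nanog was below every library without, with a log2 fold change of -0.62 ± 0.10 (edgeR adjusted p = 9.28e-05). The largest fall of any enzyme region was 3.13 kb beyond the gene's end, at chr4:150251666-150252345, with 9.77, 6.13 and 9.56 CPM with Nanog and 30.2, 21.6 and 32.6 CPM without. The groups were far apart, and the log2 fold change was -1.74 ± 0.20 (edgeR adjusted p = 3.67e-07). Its neighbour, chr4:150252471-150253484, fell as well, with 17.6 ± 5.8 CPM with Nanog and 35.6 ± 13 CPM without (SD, n = 3 libraries each) and a log2 fold change of -1.01, but its libraries overlapped and DESeq2 ended the call. Farther on, 11.8 kb beyond the end, chr4:150259975-150261436 was higher, with 69.6 ± 6.4 CPM with Nanog and 52.1 ± 5.4 CPM without and a log2 fold change of 0.43 ± 0.12 (edgeR adjusted p = 0.0117); leaving out library B or C with Nanog or library C without Nanog ended this call. Thinning to the smallest library total ended this higher call as well. Summed over 15 regions Eno1 fell, with 402.3, 377.9 and 408.4 CPM with Nanog, 564.6, 455.2 and 496.1 CPM without, and a log2 fold change of -0.35 ± 0.07 (edgeR adjusted p = 0.000830). The strongest regions of Eno2 and Eno3, the neuronal and muscle enolases, had no call, at log2 fold changes of 0.14 and 0.20.

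Pkm encodes the pyruvate kinase of dividing cells and of muscle. Its start region, chr9:59655984-59657314, had 55.3, 46.8 and 55.3 CPM with Nanog and 67.5, 48.0 and 62.4 CPM without, with overlap and no call (log2 fold change -0.17 ± 0.13, edgeR adjusted p = 0.378). Pgam1 encodes phosphoglycerate mutase, and its strongest region was not called, (log2 fold change 0.32, edgeR adjusted p = 0.0952). Another region of the gene was called lower at -0.43, which 11 of 15 alternatives ended.

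**Figure D4:**
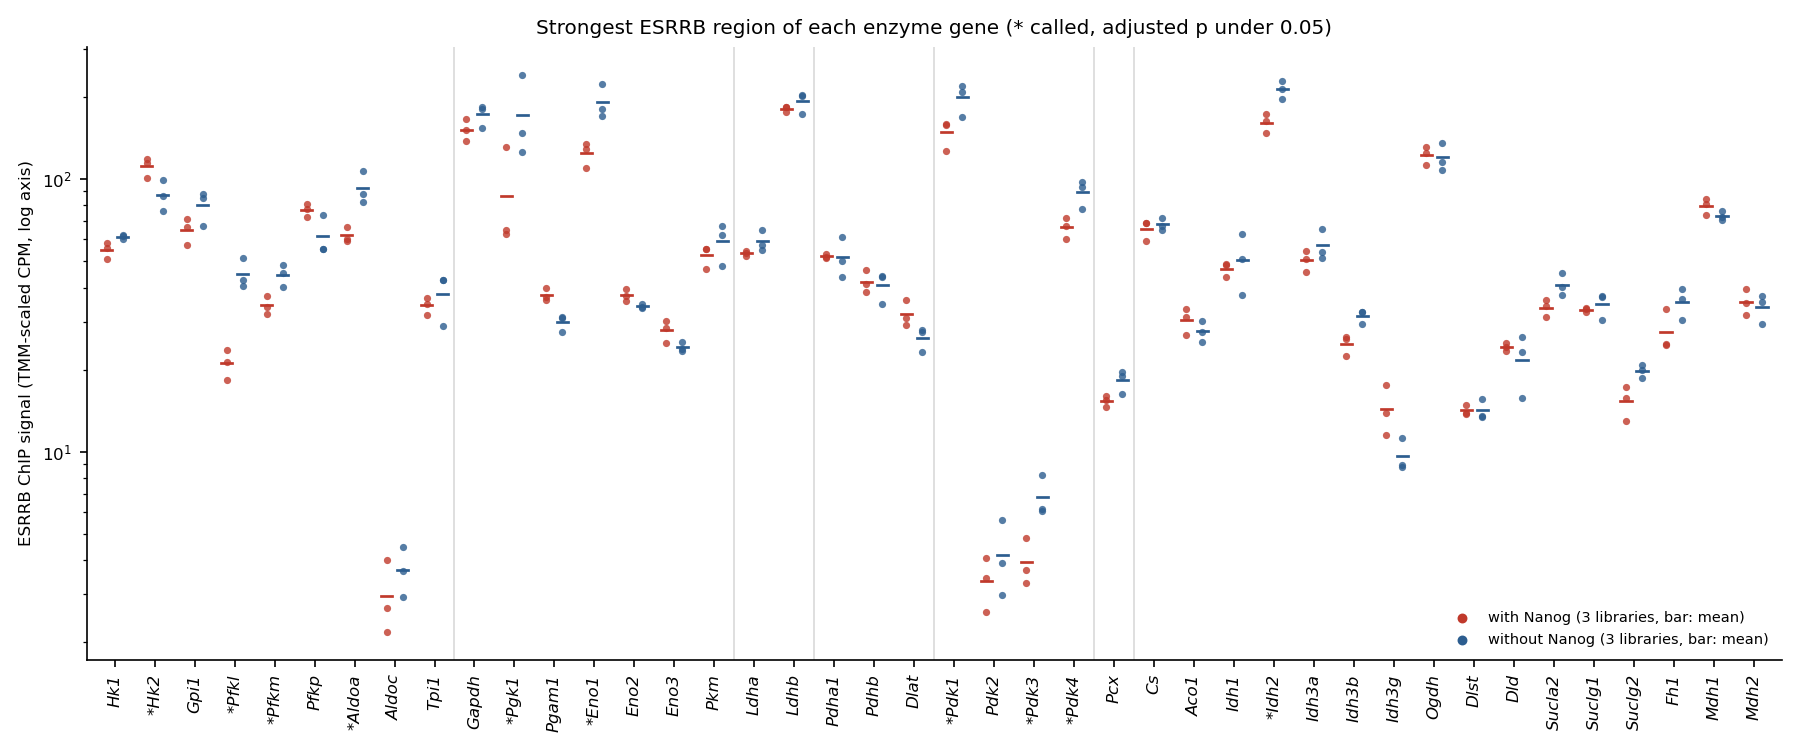
TMM-scaled CPM (vertical, log axis) of the strongest region of each of the 42 genes (horizontal, in pathway order), with the 3 libraries with Nanog left of the 3 without and short bars for means. An asterisk marks the 10 called genes: Hk2 is higher with Nanog, and Pfkl, Pfkm, Aldoa, Pgk1, Eno1, Pdk1, Pdk3, Pdk4 and Idh2 are lower, where the strongest regions of all genes were called higher at 9.03% and lower at 14.6%. All regions in the 10% with the most signal were called higher at 13.6% and lower at 22.4%.

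At the branch from pyruvate to lactate, Ldhb encodes the heart-type subunit of lactate dehydrogenase and Ldha the muscle-type one. The Ldhb start region, chr6:142506403-142508981, had 126, 108 and 127 CPM with Nanog and 189, 154 and 163 CPM without. The groups were apart, and the log2 fold change was -0.49 ± 0.10 (edgeR adjusted p = 0.000859). The neighbouring region 2.91 kb before the start, chr6:142509538-142512200, was the strongest of Ldhb and had 184, 176 and 184 CPM with Nanog and 202, 173 and 204 CPM without. Here the libraries overlapped, and the region was not called (log2 fold change -0.09 ± 0.09, edgeR adjusted p = 0.534), with 0.15 under the loess offset. The strongest Ldha region, chr7:46838896-46840102, had 54.5, 52.4 and 53.5 CPM with Nanog and 57.0, 65.1 and 54.9 CPM without. The libraries with Nanog were all slightly lower, but the region was not called (log2 fold change -0.14 ± 0.12, edgeR adjusted p = 0.445).

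The pyruvate dehydrogenase kinases Pdk1, Pdk3 and Pdk4 had their strongest regions lower with Nanog. At Pdk1 this is chr2:71866496-71868502, 5.72 kb before the start, with 158, 127 and 159 CPM with Nanog and 219, 169 and 209 CPM without. The groups were apart, with a log2 fold change of -0.42 ± 0.10 (edgeR adjusted p = 0.00398), and the call was lost without library B with Nanog and with the loess offset, at -0.20 (adjusted p = 0.100). Just beyond the end of Pdk1, chr2:71903904-71904422 had 12.2, 10.5 and 15.5 CPM with Nanog and 24.6, 19.1 and 24.5 CPM without. The groups were again apart, with a log2 fold change of -0.83 ± 0.19 (edgeR adjusted p = 0.00185). Thinning to the smallest library total ended this call. A weak region 35.9 kb beyond the end was also called lower, which 9 of 14 alternatives ended. Between them, a weak region 9.94 kb beyond the end was higher, with 6.91 ± 0.46 CPM with Nanog and 3.29 ± 0.46 CPM without (SD, n = 3 libraries each; log2 fold change 1.08). Pdk4 is a kinase known as a target of oestrogen-related receptors in muscle and liver. Its start region, chr6:5495902-5497476, had 72.2, 60.3 and 67.3 CPM with Nanog and 93.2, 77.7 and 97.9 CPM without. All libraries with Nanog were lower, with a log2 fold change of -0.43 ± 0.11 (edgeR adjusted p = 0.00741). Leaving out library B with Nanog or library C without ended the call, as did thinning. Pdk3 had a single weak region of 3.94 ± 0.78 CPM with Nanog and 6.82 ± 1.2 CPM without, whose call 8 of 14 alternatives ended, and the strongest Pdk2 region, of 3.37 ± 0.75 CPM with Nanog and 4.17 ± 1.3 CPM without, was not called.

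No start region of the complex that these kinases act on was called. Pdha1 encodes the catalytic subunit, and its start region, chrX:160137078-160139132, had 51.2, 51.9 and 53.1 CPM with Nanog and 61.5, 49.9 and 43.5 CPM without. The libraries without Nanog spanned those with it, and the log2 fold change was 0.03 ± 0.13 (edgeR adjusted p = 0.904). The start regions of Pdhb, the other subunit of that enzyme, and of Dlat, which transfers the acetyl group, were at log2 fold changes of 0.03 and 0.27, neither called. A region inside Pdha1 was called higher, at 10.5 ± 0.59 CPM with Nanog and 6.60 ± 1.3 CPM without, and 7 of 15 alternatives ended that call. Pcx, pyruvate carboxylase, had 7 regions and no call.

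In the TCA cycle, Cs encodes citrate synthase, the entry to the cycle. Its start region, chr10:128337192-128339019, had 69.0, 59.2 and 68.7 CPM with Nanog and 67.1, 65.1 and 72.2 CPM without, with full overlap and no call (log2 fold change -0.06 ± 0.11, edgeR adjusted p = 0.771). The isocitrate dehydrogenase gene Idh2, whose mitochondrial enzyme makes NADPH, had calls in both directions. Its strongest region, chr7:80129368-80131332, lies 11.7 kb before the gene and had 173, 147 and 163 CPM with Nanog and 229, 196 and 213 CPM without. The groups were apart, with a log2 fold change of -0.40 ± 0.09 (edgeR adjusted p = 0.00238), and the loess offset ended the call at -0.17 (adjusted p = 0.125). Inside the gene, chr7:80113290-80114238 had 33.0, 38.3 and 34.3 CPM with Nanog and 15.3, 23.3 and 15.7 CPM without. Here the libraries with Nanog were the higher ones, all of them, with a log2 fold change of 0.96 ± 0.17 (edgeR adjusted p = 0.000111). A weak region towards the end of the gene, chr7:80106334-80106646, was higher too, with 6.71, 6.96 and 7.64 CPM with Nanog and 3.73, 2.80 and 2.94 CPM without. Its groups were apart, with a log2 fold change of 1.19 ± 0.28 (edgeR adjusted p = 0.00311). Thinning to the smallest library total ended this call. Over its 8 regions inside the gene the median log2 fold change was 0.47, and over the 7 before it -0.52. The sum over all 15 was 353 ± 8.7 CPM with Nanog and 371 ± 6.1 CPM without and was not called (log2 fold change -0.07 ± 0.06, edgeR adjusted p = 0.421).

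Ogdh encodes the rate-setting subunit of the oxoglutarate dehydrogenase complex. Its start region, chr11:6291534-6293183, had 131, 113 and 124 CPM with Nanog and 136, 108 and 116 CPM without. The libraries overlapped, and the log2 fold change was 0.04 ± 0.10 (edgeR adjusted p = 0.839). By contrast, 8.37 kb beyond the end of the gene, chr11:6366979-6367942 had 33.2, 24.6 and 29.2 CPM with Nanog and 52.6, 41.2 and 54.3 CPM without. All libraries with Nanog were lower there, with a log2 fold change of -0.77 ± 0.14 (edgeR adjusted p = 0.000257). Thinning to the smallest library total ended this call, at an adjusted p of 0.0523 by edgeR. An adjoining weak region was also called lower, with overlapping libraries and the call lost in 5 of 15 alternatives. Aco1 encodes the cytosolic aconitase, which doubles as an iron sensor. A weak region inside it, chr4:40187851-40188150, had 4.37, 4.60 and 6.63 CPM with Nanog, from 30 to 52 reads, and 1.86, 2.52 and 1.96 CPM without, from 5 to 10 reads. The groups did not overlap, with a log2 fold change of 1.29 ± 0.33 (edgeR adjusted p = 0.00559). Suclg2 encodes a subunit of the succinyl-CoA ligase that makes GTP. Its region 2.16 kb before the gene, chr6:95720726-95721319, had 8.02, 9.79 and 13.0 CPM with Nanog and 15.7, 20.5 and 18.0 CPM without. The groups were apart, with a log2 fold change of -0.82 ± 0.20 (edgeR adjusted p = 0.00460), and thinning ended the call. The Suclg2 sum fell as well, with 61.8, 75.2 and 79.2 CPM with Nanog, 103, 105 and 87.0 CPM without, and a log2 fold change of -0.44. A region before the start of Cs was called lower and a region inside Suclg1 was called higher, both lost in 6 or more alternatives.

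The strongest regions of Aco1, Idh1, Idh3a, Idh3b, Idh3g, Dlst, Dld, Sucla2, Suclg1, Suclg2, Fh1, Mdh1 and Mdh2 were not called, and all of them had their centre inside the gene. Mdh1 and Mdh2 encode the cytosolic and mitochondrial malate dehydrogenases. The only Mdh1 region had 79.6 ± 5.4 CPM with Nanog and 73.2 ± 3.0 CPM without (SD, n = 3 libraries each), and the Mdh2 start region had 35.4 ± 3.8 CPM with Nanog and 34.1 ± 4.1 CPM without. Both pairs of groups overlapped. The subunit genes of the NAD-dependent isocitrate dehydrogenase are Idh3a, Idh3b and Idh3g. Idh3a had 50.5 ± 4.5 CPM with Nanog and 57.1 ± 7.6 CPM without. Idh3b had 24.8 ± 2.1 CPM with Nanog and 31.5 ± 1.8 CPM without, and Idh3g had 14.3 ± 3.0 CPM with Nanog and 9.66 ± 1.3 CPM without. The libraries did not overlap at Idh3b and Idh3g, in opposite directions, and neither passed the test (edgeR adjusted p = 0.111 for Idh3b and 0.0652 for Idh3g). Of 15 alternatives, 5 called Idh3g higher, among them the fits without library B of either line, and 1 called Idh3b lower. Idh1, the cytosolic NADP-dependent enzyme, had 46.9 ± 2.9 CPM with Nanog and 50.5 ± 13 CPM without. Fh1, fumarase, had 27.6 ± 5.0 CPM with Nanog and 35.3 ± 4.6 CPM without (edgeR adjusted p = 0.0922), and 3 of 15 alternatives called it lower, among them the fits without library A with Nanog and without library B without Nanog. Dld encodes the dehydrogenase shared by the pyruvate and oxoglutarate complexes, and its start region had 24.2 ± 0.81 CPM with Nanog and 21.7 ± 5.4 CPM without. Dlst, the succinyl transferase of the second of these complexes, had 14.2 ± 0.60 CPM with Nanog and 14.2 ± 1.2 CPM without. The strongest region was called higher with Nanog at 1 enzyme gene and lower at 9, against 9.03% and 14.6% of all genes. The strongest regions of all genes had less signal, at a median percentile of 79.3 against 95.6 for the enzyme genes. Among all regions in the 10% with the most signal, 13.6% were higher and 22.4% lower. Over the 32 enzyme genes whose strongest region was not called, its log2 fold change lay between -0.37 and 0.56.

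**Figure D5:**
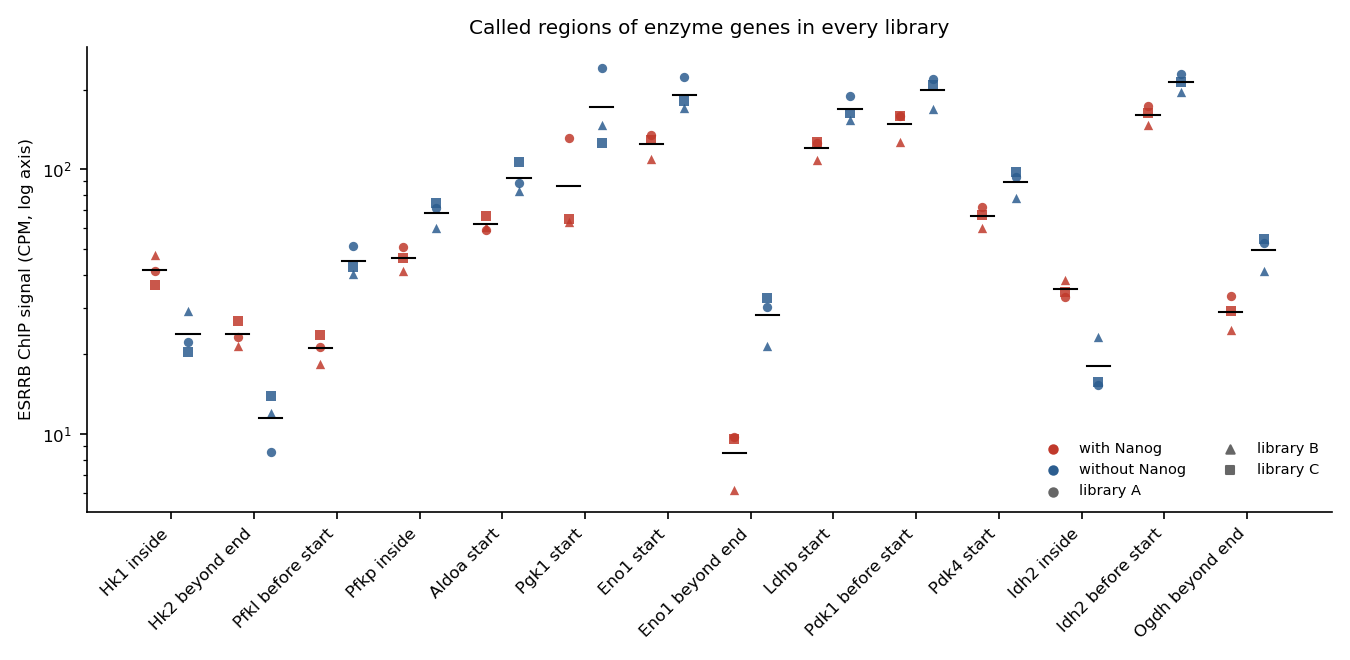
TMM-scaled CPM (vertical, log axis) in each library for 14 called enzyme regions (horizontal), with Nanog left of without at each; symbols stand for libraries A, B and C and black bars for means. At Hk1, Hk2 and inside Idh2 the libraries with Nanog are the higher ones, elsewhere the lower ones, and at Pgk1 library A lies above the other libraries of its line.

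With counts summed over the regions of each gene, 1 enzyme gene was higher with Nanog, Hk2, and 8 were lower: Pfkl, Aldoa, Pgk1, Eno1, Ldhb, Pdk1, Pdk3 and Suclg2. Over 15979 genes, 23.4% were called, 11.4% higher and 12.0% lower. The median log2 fold change was -0.10 over the 42 enzyme genes and -0.0003 over all genes. Of the 8 lower sums, those of Pfkl, Aldoa, Eno1 and Suclg2 kept the call in all 12 alternatives, and those of Pgk1, Ldhb and Pdk3 lost it with DESeq2. Without library A without Nanog the sums of Pgk1, Ldhb, Pdk1 and Pdk3 had no call, without library B with Nanog or library C without Nanog those of Ldhb, Pdk1 and Pdk3, without library C with Nanog those of Ldhb and Pdk3, and without library A with Nanog that of Ldhb. The 33 sums with no call lay between -0.32 and 0.36. Region calls were higher alone at 4 enzyme genes, lower alone at 12, in both directions at 5 and absent at 21. The same shares over all genes were not counted, and a gene with more regions can hold more calls. These counts are therefore a description alone. Reads in a wide or strong region weigh most in such a sum, so a sum with no call, as at Idh2, can hold regions that went opposite ways.

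The rule's distance of 50 kb has a gap around it. The last region inside it, 47.5 kb from Hk2, had 5.50 CPM with Nanog and 8.28 CPM without, and the first outside it, 59.6 kb from Pdk4, had 4.30 CPM with Nanog and 5.93 CPM without.

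The list of other genes of the same pathways holds 48 transporters, regulators, isozymes and side-branch enzymes, of which 44 had a tested region. Of their 205 regions, 11 were higher with Nanog and 28 lower. These shares, 5.37% and 13.7%, stand beside 9.42% and 9.78% over all regions. A call was present at 23 of the 44 genes, for which no share over all genes was counted. A region of Fbp2, a fructose-bisphosphatase, was lower, with 26.1 ± 1.2 CPM with Nanog and 46.3 ± 2.1 CPM without (SD, n = 3 libraries each). A region of Slc2a3, a glucose transporter, was lower, with 35.1 ± 3.9 CPM with Nanog and 57.5 ± 3.1 CPM without. A region of Adpgk, the ADP-dependent glucokinase, was lower, with 25.6 ± 1.7 CPM with Nanog and 40.8 ± 3.3 CPM without. Their log2 fold changes were -0.82, -0.71 and -0.67. Glud1, glutamate dehydrogenase, went the other way, with a region of 25.5 ± 4.2 CPM with Nanog and 11.9 ± 2.0 CPM without and a log2 fold change of 1.13. Regions of Me2 and Me3, malic enzymes, of Tigar, a phosphatase that restrains glycolysis, and of Bpgm, the bisphosphoglycerate mutase, were lower, with log2 fold changes of -0.95, -0.91, -2.00 and -1.68. The last 2 regions are weak, at 1.51 and 2.12 CPM with Nanog and 6.17 and 6.81 CPM without. Slc2a3 and Tigar each had 1 region called higher and 2 called lower. The higher region of Slc2a3 had 83.0 ± 3.6 CPM with Nanog and 66.1 ± 8.6 CPM without. That of Tigar had 38.7 ± 2.7 CPM with Nanog and 28.7 ± 8.4 CPM without, with overlapping libraries.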

How the data were processed

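ESRRB ChIP-seq counts of 6 libraries, 3 with Nanog and 3 without, were analysed; the 6 input libraries have no column in the table and were not used here. The deposited table holds read counts per region as the authors made them, unnormalised, judged from its whole numbers and unequal column totals. The submitters' processing notes name the build mm10 and the tools Bowtie2, MACS2, deepTools, SAMtools 1.4.1, bcl2fastq 2.19.1 and bedtools 2.26.0; duplicate removal, peak threshold and read counter are unstated. The deposited peak lists, 1 per line, hold positions with no score, and their names read as peaks shared by the replicates. Column names give a line and a letter, A to C, while titles give numbers, and columns were therefore assigned to a line and to no sample. No 2 libraries of a line agreed within sampling noise.

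Regions were assigned to the nearest RefSeq protein-coding gene of GRCm38.p6 by the distance from the region's centre to the gene's span, and ties counted for each gene (4 of 235 regions). Starts and strands come from the RefSeq promoter table, and coordinates are 1-based. All regions were fitted together: filterByExpr by line left 84892, TMM scaled the libraries, and the quasi-likelihood test of edgeR 4.0.16 (R 4.3.3; glmQLFit, glmQLFTest) was applied to the line, with Benjamini-Hochberg adjustment over all regions and no block. Sums per gene were fitted likewise over 15979 genes. Log-CPM had a prior count of 2. On data simulated from these libraries, 34 of 67 regions changed 2-fold and 62 of 66 changed 4-fold were called, with 4 of 67 changed 1.5-fold and 4 of 84692 unchanged. Of the 84892 simulated regions, 84692 were thus unchanged, whereas 19.2% of the real regions were called. With so few changes the adjustment was stricter in the simulation, so these rates do not carry over to the real calls.

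The members and lists were chosen with earlier results of these data known. Values in every library were given for called regions without overlap (up to 20, by adjusted p), the 10 regions with the most signal and the strongest regions of Gapdh, Pgk1, Pkm, Ldha, Hk2, Pdk1, Pdha1, Cs and Ogdh; up to 8 other pathway genes were named by adjusted p. Regions outside that rule were named to account for the calls of a gene. The AGGTCA search was added after seeing the data. Alternatives used other scalings, filters, distances and tests (DESeq2 1.42.0, limma-voom 3.58.1), thinned libraries and left out each library.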

Additional observations from a re-analysis of the deposited data

How the results depend on the processing

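Of the 41 called enzyme regions, 11 were called in every alternative that could test them, 1 each at Hk1, Hk2, Pfkl, Pfkp, Aldoa, Ldhb, Pdk1, Aco1 and Idh2 and 2 at Eno1; 30 lost the call in at least 1, 13 of them with DESeq2, and none turned its direction. At Pdk1 the call kept throughout was that of the weak region higher with Nanog, and every Pdk1 region called lower lost its call in at least 1. At Idh2 it was that of the stronger of the higher regions inside the gene. The 18 higher and 23 lower calls became 6 and 10 with libraries thinned to the smallest total, 10 and 7 with regions inside genes alone, and 38 and 47 with every region within 50 kb. With 10 kb the higher calls were 11, and with DESeq2 the lower ones were 14. Leaving out a library gave 11 to 25 higher and 13 to 28 lower, lowest without library C and without library B with Nanog. The 235 regions became 140 inside genes and 504 with every region within 50 kb. Deviations of same-lettered libraries of the lines correlated at 0.083, 0.223 and 0.128 for A, B and C. Each library correlated best with its own letter, and pairs of unlike letters lay between -0.159 and 0.045. Whether the letters pair the samples was not tested, and the main fit had no block. A replicate block by letter gave 28 higher and 34 lower regions, 2 higher and 12 lower gene sums, and 17 higher calls among other pathway genes. Of the gene sums, 5 were lower with DESeq2, and leaving out a library gave 1 to 3 higher and 4 to 14 lower, with 4 lower without library A without Nanog and 14 lower without library B without Nanog. Among other pathway genes DESeq2 gave 4 higher and 18 lower, thinning 1 and 9, and leaving out a library 6 to 15 and 14 to 26. Of the 32 strongest regions with no call, 7 gained a call in at least 1 alternative, at Gpi1, Pfkp, Gapdh, Pgam1, Idh3b, Idh3g and Fh1. The promoter windows of 0 enzyme genes held the ERR element TCAAGGTCA, those of 3 its shorter form AAGGTCA and those of 12 the nuclear receptor core AGGTCA. The cause of these shifts was not tested, apart from the smaller number of reads after thinning and of regions or libraries where some were left out.

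Signs turned only where no call was made. With the loess offset the log2 fold change was 0.050 at Cs, 0.027 at Gapdh and 0.15 at Ldhb (strongest regions), and after thinning 0.067 at Cs, 0.049 at Idh1 and -0.019 at Ogdh. Leaving out a library gave -0.092 to 0.013 at Cs, -0.037 to 0.35 at Dld, -0.022 to 0.080 at Dlst, -0.26 to 0.11 at Idh1, -0.025 to 0.13 at Mdh2, -0.013 to 0.14 at Ogdh, -0.077 to 0.17 at Pdha1 and -0.051 to 0.10 at Pdhb. No scaling moved the median over all regions by more than 0.1 on the log2 scale. Each scaling sets the libraries to a common level over the regions, so a small median follows from it. A change of ESRRB signal shared by all regions would not show. Depth limits weak regions most: that inside Aco1 rests on 5 to 10 reads per library without Nanog. The peak list without Nanog held 99 enzyme regions when 50% of a region had to be covered.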
